A study of Mus musculus with 8 samples.

Results

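The muscarinic acetylcholine receptors are the 5 G protein-coupled receptors through which acetylcholine acts slowly on neurons, encoded by Chrm1, Chrm2, Chrm3, Chrm4 and Chrm5. All 5 genes were found by symbol among the 19787 genes measured in nuclei of the mouse low thoracic spinal cord. The family was taken whole, and it was chosen with the high Chrm4 level after hemisection already known. For that reason levels and shares by cell type and the values after hemisection are given as a description with no test of the receptors. Tests are given for traced against untraced and regenerating against traced neurons, contrasts other than the one that led to the choice.

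The receptors M1, M3 and M5, encoded by Chrm1, Chrm3 and Chrm5, couple to Gq proteins, which activate phospholipase C, release calcium from stores and close M-type potassium channels. The receptors M2 and M4, encoded by Chrm2 and Chrm4, couple to Gi/o proteins, which inhibit adenylyl cyclase and open inwardly rectifying potassium channels. In the spinal cord acetylcholine comes from motor neurons and from cholinergic interneurons, some of which form large C bouton synapses that face M2 receptors on motor neurons. Muscarinic receptors of the dorsal horn are known for damping the transmission of pain.

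Nuclei were profiled by droplet-based single-nucleus RNA sequencing in 8 libraries, all from wild-type C57BL/6 mice, of an age not given in the sources used here. One library held GFP-labelled regenerating neurons. A pair of libraries held traced neurons of uninjured cord, which carried GFP because they project to the lumbar cord, and another pair held the untraced nuclei, without GFP, of the same numbered replicates. A further pair came from cords after a hemisection with natural repair, set against 1 library of uninjured control cord. By their titles, the traced and untraced libraries shared an experiment, and the hemisection and uninjured control libraries shared another. The regenerating library came from a further experiment. Regenerating against traced and hemisection against untraced are thus comparisons between experiments, in which group and experiment cannot be told apart.

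The deposited annotation called 4076 of 12447 nuclei neurons and placed them in 28 subtypes. The regenerating library held 238 neurons. The traced libraries held 80 and 25, and the untraced libraries 354 and 123. The hemisection libraries held 1000 and 108 neurons, and the uninjured control library 2148. The median depth of a neuron lay between 5767 and 16489.5 unique molecular identifiers (UMIs, counts of distinct captured transcript molecules) outside the regenerating library, where it was 488. In the neurons of the 8 libraries, 7 measured markers of neurons summed to between 7925 and 13979 CPM, which are counts scaled to the same total number of UMIs in every library. None of them was at 0 in any library. Every non-neuronal nucleus of the uninjured control and every regenerating nucleus carried a name without a barcode sequence, 4727 in all. Among the 7720 barcodes with a sequence, 4 occurred in more than 1 library. The labels do not say whether replicates are separate animals, so p-values measure the spread between these libraries, which may be technical. Intervals in brackets are exact 95% intervals for counting error only.

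The 5 genes lie apart in the genome (GENCODE annotation of GRCm38). Chrm1 lies on the plus strand at chr19:8663789-8683587 and Chrm2 on the plus strand at chr6:36388084-36528414. Chrm3 lies on the minus strand at chr13:9875486-10360847. Chrm4 lies on the plus strand at chr2:91927249-91928688 and Chrm5 on the minus strand at chr2:112479171-112480769. The coding sequence of each receptor sits in a single exon. The following stretches of coding exon were the 60 bases most alike across all 5 genes, shown because droplet reads are assigned to a gene by sequence and related genes could share them. Capitals mark the 43 bases that are identical in all 5 receptors, and each stretch reads in the direction of its gene.
Chrm1: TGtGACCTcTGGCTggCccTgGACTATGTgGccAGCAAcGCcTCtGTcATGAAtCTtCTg
Chrm2: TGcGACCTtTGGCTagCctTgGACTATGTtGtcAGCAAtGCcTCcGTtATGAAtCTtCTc
Chrm3: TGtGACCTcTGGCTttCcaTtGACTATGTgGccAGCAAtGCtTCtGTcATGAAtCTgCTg
Chrm4: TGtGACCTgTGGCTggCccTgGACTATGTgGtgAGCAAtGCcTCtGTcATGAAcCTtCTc
Chrm5: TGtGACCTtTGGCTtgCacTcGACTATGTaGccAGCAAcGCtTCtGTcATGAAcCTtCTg
These stretches are at chr19:8678224-8678283 (Chrm1, plus strand), chr6:36523495-36523554 (Chrm2, plus strand), chr13:9878522-9878581 (Chrm3, minus strand), chr2:91927558-91927617 (Chrm4, plus strand) and chr2:112480404-112480463 (Chrm5, minus strand). Differences between the receptors recur within a few bases even here. The longest run of identical bases shared by any pair of coding sequences was 29, between Chrm1 and Chrm4. Within a coupling class, identical residues made up 63.1% of aligned positions in Chrm2 and Chrm4, 63.0% in Chrm1 and Chrm5, 61.1% in Chrm1 and Chrm3 and 59.9% in Chrm3 and Chrm5. Across the classes the share ran from 49.8% in Chrm1 and Chrm2 to 55.4% in Chrm4 and Chrm5.

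Chrm4 and Chrm5 differ from the others in their gene models. In the GENCODE annotation both are a single exon of coding sequence only, of 1440 and 1599 bases, with 0 bases after the stop codon, whereas the longest models of Chrm1, Chrm2 and Chrm3 have 4272, 3804 and 1743 bases after it. The last 60 bases of the models of Chrm4 and Chrm5 follow, with the stop codon in capitals, because this assay primes on poly(A) tails and a model that ends at the stop codon holds none of the sequence between them.
Chrm4: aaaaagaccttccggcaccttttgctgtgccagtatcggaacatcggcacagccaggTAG
Chrm5: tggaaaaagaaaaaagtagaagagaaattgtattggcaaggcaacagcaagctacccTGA
The Chrm4 end is at chr2:91928629-91928688 on the plus strand and the Chrm5 end at chr2:112479171-112479230 on the minus strand. In RefSeq the Chrm4 gene extends 1147 bases further in the 3′ direction and 5060 bases further in the 5′ direction, to 91929835 and 91922189, and it then overlaps the 3′ end of Mdk, which lies on the opposite strand and ends at 91929805. RefSeq extends Chrm5 by 438 bases in the 3′ direction. Which gene models the authors counted on was not given in the sources used here. Where counts or detection of different receptors stand side by side, the gap is therefore not read as a difference in expression. This holds above all for the few counts of Chrm5. It was also not given whether all libraries were counted with the same gene models, and the part of that in the differences between libraries, those of Chrm4 above all, was not tested.

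Chrm2 and Chrm3 were detected in neurons of every library, Chrm4 almost only in neurons after hemisection, and Chrm1 and Chrm5 in few nuclei anywhere. Chrm2, the gene of the Gi/o-coupled M2 receptor, had 267 CPM in neurons of the regenerating library. It had 196 and 327 CPM in traced neurons, and 306 and 279.7 CPM in untraced neurons. It had 338 and 309.7 CPM in hemisection neurons, against 343 CPM in neurons of the uninjured control. Traced replicate 1 was the lowest, and its interval [174 to 219.7] overlapped that of the regenerating library [187 to 369].

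Chrm3, the gene of the Gq-coupled M3 receptor, had 393 CPM in regenerating neurons. It had 200.4 and 417 CPM in traced neurons, and 428 and 461 CPM in untraced neurons. It had 496 and 476 CPM in hemisection neurons, against 351 CPM in the uninjured control. Traced replicate 1 was again the lowest library, and the hemisection libraries were the highest.

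Chrm4, the gene of the Gi/o-coupled M4 receptor, had 0 counts in regenerating neurons, 0 and 0 in traced neurons, and 1 and 0 in untraced neurons. It had 700 and 105 counts in hemisection neurons, against 3 in the uninjured control. In CPM these were 86.0 [79.7 to 92.6] and 100.4 [82.1 to 121] after hemisection, against 0.145 [0.0298 to 0.423] in the uninjured control. The hemisection libraries did not overlap with any other library. A count of 0 in the regenerating library allowed up to 22.2 CPM (3 counts), so at that depth a level below the hemisection values but far above the uninjured control would not have been detectable there.

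Chrm1, the gene of the M1 receptor, had 0 counts in regenerating neurons, 3 and 1 in traced, and 2 and 0 in untraced neurons. It had 11 and 0 counts in hemisection neurons, against 20 in the uninjured control. Chrm5, the gene of the M5 receptor, had 0 counts in regenerating neurons, 2 and 0 in traced, and 6 and 2 in untraced neurons. It had 9 and 5 counts in hemisection neurons, against 44 in the uninjured control. Neither gene exceeded 4.78 CPM in neurons of any library.

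**Figure D1:**
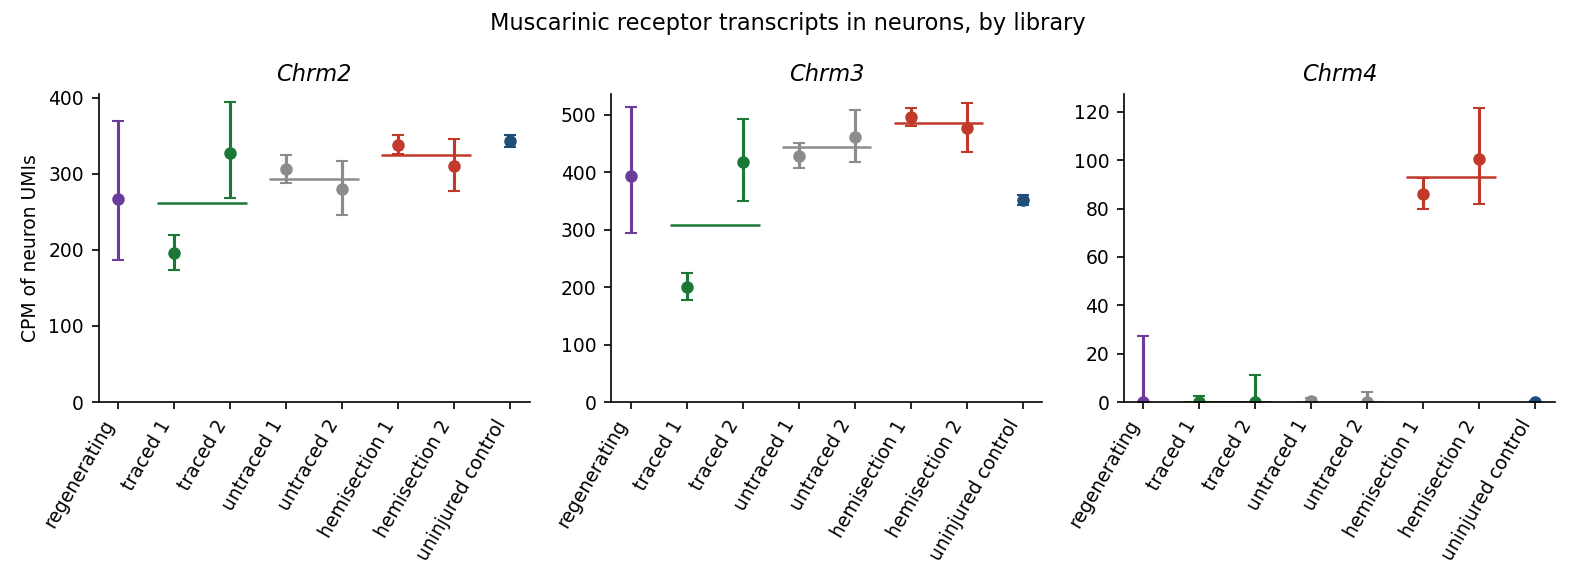
Level of Chrm2, Chrm3 and Chrm4 in neurons of each library, in CPM of all UMIs of those neurons. Points are libraries with exact 95% counting intervals, and horizontal lines are means of the paired libraries; Chrm4 stood at 86.0 and 100.4 CPM after hemisection and at most 0.285 CPM elsewhere, while traced replicate 1 was the lowest library for Chrm2 and Chrm3.

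Across the annotated classes, transcripts of Chrm2 and Chrm3 were concentrated in neurons. A Chrm2 UMI was found in 10.1% of regenerating neurons, 53.8% and 64.0% of traced neurons and 52.0% and 43.9% of untraced neurons. It was found in 43.1% and 52.8% of hemisection neurons, against 62.6% of uninjured control neurons. The regenerating neurons had the lowest share and the lowest depth, and their CPM lay among those of the other libraries. In nuclei thinned to 400 UMIs each, leaving out 82 shallower regenerating neurons, Chrm2 was found in 8.33% of regenerating neurons, 10.0% and 8.00% of traced neurons and 11.3% and 6.50% of untraced neurons. On the same scale it was found in 8.90% and 9.26% of hemisection neurons, against 11.6% of uninjured control neurons.

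Oligodendrocytes served as the class in which the receptors were taken as background from free RNA, an assumption that was not tested. The regenerating library held only neurons and the traced libraries held 12 and 1 oligodendrocytes, so these libraries had no such measure. A Chrm2 UMI lay in 6.45% of 62 and 0.915% of 765 oligodendrocytes of the hemisection libraries, and in 0.478% and 1.35% of those of the untraced libraries. In the uninjured control a Chrm2 UMI lay in 8.85% of 3164 oligodendrocytes at a median depth of 3346.5 UMIs, and in 62.6% of neurons at a median of 8907. Thinned to 2000 UMIs, the shares were 5.59% of oligodendrocytes and 36.4% of neurons. Astrocytes, microglia, oligodendrocyte precursors (OPC) and vascular nuclei of the same library had like low shares of 8.42%, 8.74%, 10.7% and 11.2%. These are read as background too, without a test. By CPM, Chrm2 in oligodendrocytes stood at 54.2 [24.8 to 103] in hemisection replicate 1 and 5.73 in replicate 2, against 27.4 in the uninjured control. In replicate 1, 6 of the 9 UMIs lay in 1 nucleus, so that value is no firm measure of background. Whether the uninjured control, with barcode sequences in its neurons only, was merged from several preparations is not known.

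For Chrm3 the uninjured control had a UMI in 49.6% of neurons, 6.89% of oligodendrocytes, 7.65% of microglia and 12.4% of OPC. The level in OPC was 48.3 CPM in hemisection replicate 2 (26 OPC), against 59.2 CPM in the uninjured control (177 OPC) and 18.5 and 0 CPM in the untraced libraries (66 and 31 OPC). A single nucleus held 4 of the 5 Chrm3 UMIs in OPC of hemisection replicate 2, and 16 of the 53 in the uninjured control. Thinned to 2000 UMIs, Chrm3 was found in 7.06% of OPC, 7.02% of microglia and 4.23% of oligodendrocytes of the uninjured control. Among classes of at least 20 nuclei, Chrm1 had its highest levels in OPC, with 8 counts in 177 OPC of the uninjured control (8.94 CPM, 4.52% of OPC) against 20 counts in 2148 neurons (0.964 CPM, 0.931% of neurons). Hemisection replicate 2 had 2 Chrm1 counts in 1 of its 26 OPC. The 3164 oligodendrocytes and 594 astrocytes of the uninjured control had 3 and 0 Chrm1 counts. Its 188 vascular nuclei had 3 (3.64 [0.750 to 10.6] CPM), which overlapped OPC at 8.94 [3.86 to 17.6] CPM. Thinned to 2000 UMIs, 1 of 170 OPC and 1 of 168 vascular nuclei kept a Chrm1 UMI.

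**Figure D2:**
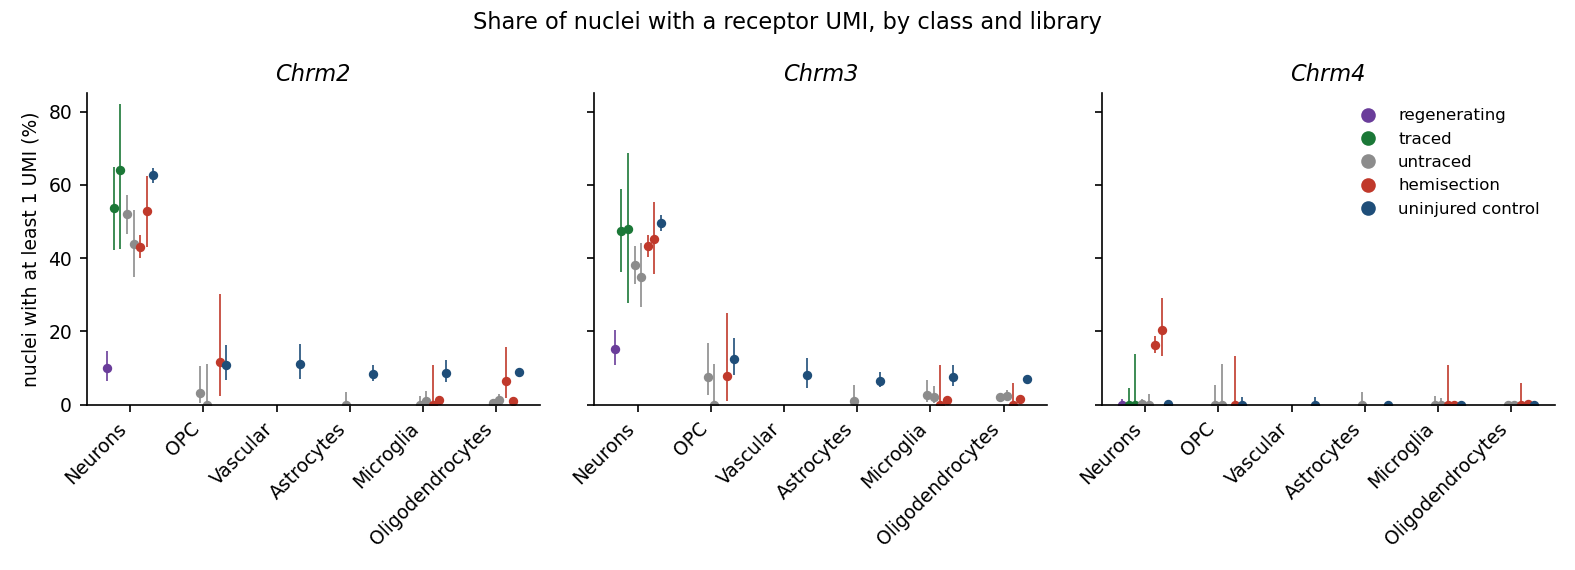
Share of nuclei with at least 1 UMI of Chrm2, Chrm3 and Chrm4 by annotated class, in percent, for libraries with at least 20 nuclei of the class, with exact 95% intervals. Colours are groups of libraries; neurons stand above every other class for Chrm2 and Chrm3 outside the shallow regenerating library, and Chrm4 rises from the axis only in hemisection neurons, at 16.3% and 20.4%.

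The level of Chrm2 differed widely between neuron subtypes. In hemisection replicate 1, with 15 subtypes of at least 20 nuclei, DI_Nxph1_Npy, read as dorsal inhibitory from its name, led at 835 CPM, followed by VIP_V1_Foxp2 at 604 CPM, and DE_Reln_Nmur2 was lowest at 44.8 CPM. In the uninjured control, the library with the most neurons, 24 subtypes had at least 20 nuclei. DE_Reln_Trhr, read as dorsal excitatory, was highest at 1145 [1002 to 1304] CPM. It was followed by the subtype MN at 791 [711 to 877] CPM and by DI_Nxph1_Npy at 636 [596 to 678] CPM. All 24 nuclei of MN and all 23 of DE_Reln_Trhr had a Chrm2 UMI. Each of these levels lay above the next with no overlap of counting intervals.

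Below them the order was mostly unresolved. Of 23 pairs of neighbours in the order, 19 had overlapping intervals. DE_Nts (459 CPM), VIP_V1_Foxp2 (452 CPM), DI_Npy (432 CPM) and DE_Tac1 (416 CPM) could not be ordered. DE_Reln_Nmur2 was lowest at 46.3 [35.3 to 59.5] CPM, its interval overlapping that of DE_Rora at 60.7 CPM. The subtype CSF-N had only 16 nuclei in the uninjured control and 16 in hemisection replicate 1, with Chrm2 at 1593 [1338 to 1882] CPM after hemisection and 1048 [870.0 to 1251] CPM in the uninjured control, and untraced replicate 1 had 1227 CPM in 6 such nuclei.

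Parts of this order recurred in other libraries. In untraced replicate 1, with 7 such subtypes, DI_Nxph1_Npy led at 597 CPM and DE_Tac2_Nmu followed at 340.1 CPM. DE_Reln_Nmur2 was again lowest, at 42.5 CPM. MN had 22 Chrm2 counts in the 2 such nuclei of traced replicate 2 (700.2 CPM) and 7 counts in the 2 of untraced replicate 1 (220.5 CPM).

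Chrm3 was concentrated in 1 dorsal inhibitory subtype, DI_Nxph1_Npy. In hemisection replicate 1 it stood at 2613 [2479 to 2752] CPM, followed by VIP_V1_Foxp2 at 741 CPM. In the uninjured control DI_Nxph1_Npy stood at 2209 [2135 to 2286] CPM, with a UMI in 95.8% of its 167 nuclei. DE_Tac1 followed at 832 CPM, DE_Cck_Cpne4 at 574 CPM and DI_Rorb at 429 CPM, and these 4 lay apart from each other. At the other end, DE_Reln_Nmur2 had 28.5 [20.1 to 39.3] CPM and MN 13.3 [4.89 to 29.0] CPM, which overlapped. MN thus stood near the top of the Chrm2 order and at the foot of the Chrm3 order, with 356 Chrm2 and 6 Chrm3 counts in the same 24 nuclei. Here too 19 of 23 neighbouring pairs overlapped.

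The DI_Nxph1_Npy subtype held 8 Chrm3 counts in 6 nuclei of the regenerating library (1931 CPM). It had 0 counts in the 1 such nucleus of traced replicate 1, and traced replicate 2 had no such nucleus. It had 2979 and 3868 CPM in the untraced libraries. It had 2613 and 2779 CPM in the hemisection libraries, against 2209 CPM in the uninjured control. The subtype was high wherever it was sampled by several nuclei. It held 739 of 1501 and 206 of 412 neuronal Chrm3 UMIs in the untraced libraries, and 35.3% and 51.0% of them in the hemisection libraries, against 45.6% in the uninjured control.

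Grouped by the letters of their names, inhibitory neurons had more Chrm3 than excitatory ones in every library with at least 20 nuclei of each. The values were 584 against 321 CPM in the regenerating library, and 843 against 156.5 CPM and 827 against 196 CPM in the untraced libraries. They were 964 against 218.5 CPM and 824 against 220.5 CPM in the hemisection libraries, and 596.5 against 169.6 CPM in the uninjured control. The intervals of the regenerating library overlapped, at 366 to 884 against 218 to 456 CPM.

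Much of the inhibitory value came from DI_Nxph1_Npy, with 3321 of 5335 inhibitory Chrm3 counts in the uninjured control. Without that subtype, a split chosen after seeing the data, inhibitory against excitatory Chrm3 was 418 against 321 CPM in the regenerating library, and 382 against 156.5 CPM and 325 against 196 CPM in the untraced libraries. It was 598 against 218.5 CPM and 316 against 220.5 CPM in the hemisection libraries, and 271 against 169.6 CPM in the uninjured control. The intervals overlapped in the regenerating library and, narrowly, in hemisection replicate 2.

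For Chrm2, with all subtypes kept, the gap was smaller, with 266 against 249 CPM and overlapping intervals in the regenerating library, 370.0 against 247.5 CPM and 412 against 182 CPM in the untraced libraries, 438 against 257 CPM and 397 against 245 CPM after hemisection, and 365 against 299 CPM in the uninjured control. Without DI_Nxph1_Npy, a split chosen after seeing the data, the Chrm2 intervals overlapped in the uninjured control, at 311 against 299 CPM. They also overlapped in hemisection replicate 2, at 247.5 against 245 CPM, and in the regenerating library, at 269 against 249 CPM. They lay apart in hemisection replicate 1, at 350 against 257 CPM, and in the untraced libraries, at 321 against 247.5 CPM and 350 against 182 CPM.

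**Figure D3:**
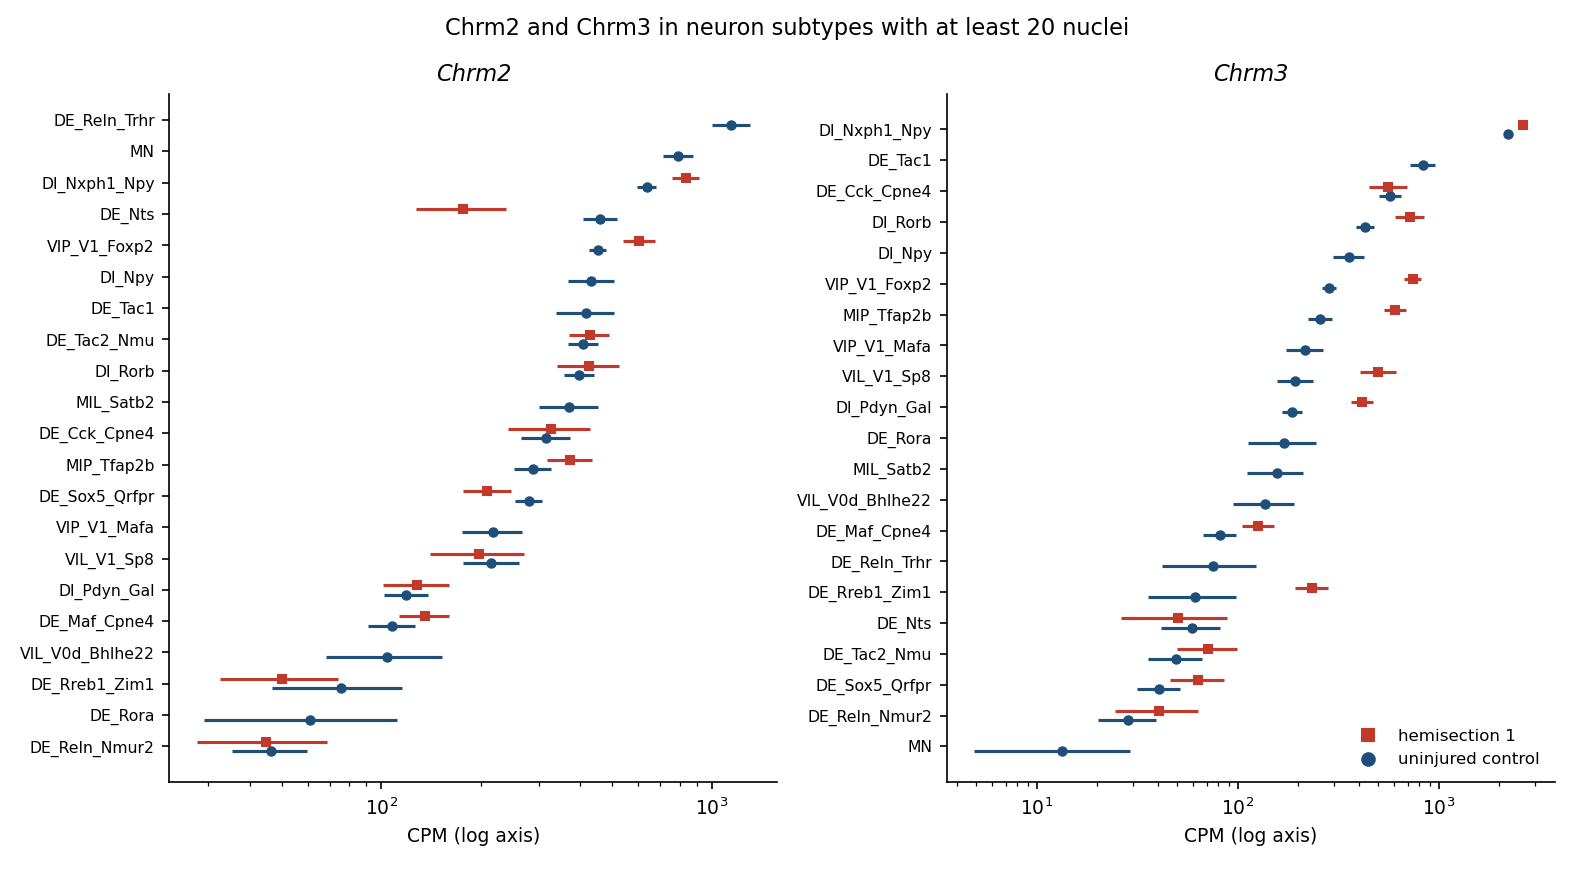
Level of Chrm2 and Chrm3 in neuron subtypes with at least 20 nuclei, in CPM on a log axis, with exact 95% counting intervals; red squares are hemisection replicate 1, blue circles the uninjured control, ordered by the control's level, and some subtypes are not shown. DI_Nxph1_Npy stands alone at the right for Chrm3, and MN is second for Chrm2 and last for Chrm3.

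Over subtypes the receptors followed each other only loosely. Levels of Chrm2 and Chrm3, as log2(CPM + 10), had a Pearson r of 0.62 over the 15 subtypes of hemisection replicate 1 and of 0.23 over the 24 of the uninjured control. Those points share a library and its depth, and DI_Nxph1_Npy is high for both genes. In hemisection replicate 1, Chrm4 had an r of 0.24 with Chrm2 and of 0.24 with Chrm3. Within single nuclei thinned to 2000 UMIs, Chrm3 was found in 45.5% of hemisection replicate 1 neurons with a Chrm2 UMI and in 28.3% of those without, and in 35.6% and 23.8% of uninjured control neurons. Chrm4 was found in 8.51% of hemisection replicate 1 neurons with a Chrm2 UMI and in 7.88% of those without.

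The genes whose levels followed a receptor most closely over subtypes were named where r reached 0.7. Over the 15 subtypes of hemisection replicate 1, Cdh7, a cadherin gene (0.91), Ptpru, a receptor phosphatase gene (0.90), and Htr2c, a serotonin receptor gene (0.86), followed Chrm3. Prpf31, a splicing factor gene (0.81), Tenm2, a teneurin gene (0.80), and Dync1i1, a dynein gene (0.75), followed Chrm2. Cachd1 (0.90), which encodes a regulator of calcium channels, Ptpn5 (0.89), a neuronal phosphatase gene, and Mast4 (0.88), a kinase gene, followed Chrm4. For Chrm3 in the uninjured control those over the threshold were Dmd, the dystrophin gene (r = 0.75), Cplx2, which encodes a regulator of vesicle fusion (0.73), and Omg, which encodes a myelin glycoprotein (0.70), all over 24 subtypes. No gene reached that value for Chrm2 there, and the highest was 0.66. They were the closest of 8771 genes in hemisection replicate 1 or of 9402 in the uninjured control, and the subtypes share a library and its depth.

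Chrm5 was sparse but not spread evenly. In hemisection replicate 1, DE_Reln_Nmur2, DE_Sox5_Qrfpr and DE_Tac2_Nmu held 4, 2 and 3 of its 9 counts, and in hemisection replicate 2 DE_Reln_Nmur2 held 4 of 5. Of 44 counts in uninjured control neurons, 17 lay in DE_Reln_Nmur2 (13.1 CPM, 198 nuclei), 15 in DE_Sox5_Qrfpr (9.38 CPM, 192 nuclei) and 5 in DE_Tac2_Nmu (5.71 CPM, 108 nuclei). In untraced replicate 1 DE_Sox5_Qrfpr held 4 of 6. These are dorsal excitatory subtypes by name, and DE_Reln_Nmur2 was lowest for Chrm2 in hemisection replicate 1, untraced replicate 1 and the uninjured control. In all 3164 oligodendrocytes of the uninjured control 1 Chrm5 count was found. Chrm1 had 9 of its 11 counts of hemisection replicate 1 in DE_Rreb1_Zim1 (18.1 CPM), against 2 of 20 in the uninjured control (7.18 CPM), and its counts there were spread over many subtypes.

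Traced and untraced neurons were compared to see what sets apart those that project to the lumbar walking centres. None of the receptors passed the test. In the edgeR quasi-likelihood test with Benjamini-Hochberg adjustment, 0 of the 2 receptors with counts to compare, Chrm2 and Chrm3, were called, where 0.362% of 11601 tested genes were called (0.112% higher, 0.25% lower). Chrm1 and Chrm5 did not pass the filter on low counts, and Chrm4 passed it through the hemisection libraries alone. Chrm3 averaged 309 ± 153 CPM in the traced libraries and 444 ± 23.4 CPM in the untraced ones (SD, n = 2 each), a log2 fold change of −0.68 (SE 0.25, edgeR adjusted p = 0.418, unadjusted p = 0.0159). It was lower than both untraced libraries in both traced libraries, by little in traced replicate 2. That fit did not use the shared replicate numbers of traced and untraced libraries. With the replicate number as a block, Chrm3 stood at −0.72 (edgeR adjusted p = 0.0966). There 0 receptors and 141 of 11601 tested genes were called. Chrm2 averaged 261 ± 92.8 CPM in the traced libraries and 293 ± 18.5 CPM in the untraced ones (SD, n = 2 each), a log2 fold change of −0.30 (SE 0.21, edgeR adjusted p = 0.818), and the groups overlapped. For Chrm4, with 0 traced and 1 untraced count in all, no fold is given.

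The Chrm3 difference changed when a traced library or 1 subtype was left out. Without traced replicate 2 it was −1.18 (edgeR adjusted p = 0.0350) and without traced replicate 1 it was −0.21 (edgeR adjusted p = 0.802), and the adjusted p ranged from 0.0350 to 0.936 over the settings tried. DI_Nxph1_Npy made up 1.25% and 0 of traced neurons, against 6.50% and 5.69% of untraced neurons. In all other neurons Chrm3 stood at 201 and 417 CPM in traced libraries, against 234 and 245 CPM in untraced libraries, so that the groups overlapped. Without that subtype, a split chosen after seeing the data, the log2 fold change was 0.21 (edgeR adjusted p = 0.936), the opposite direction. Traced replicate 1 was still lower than both untraced libraries there, and traced replicate 2, with 25 neurons, was higher. The part of the subtype in the difference was not tested. In traced replicate 1 a single nucleus gave 48 of the 291 Chrm3 UMIs, and in traced replicate 2 a single nucleus gave 29 of 139.

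**Figure D4:**
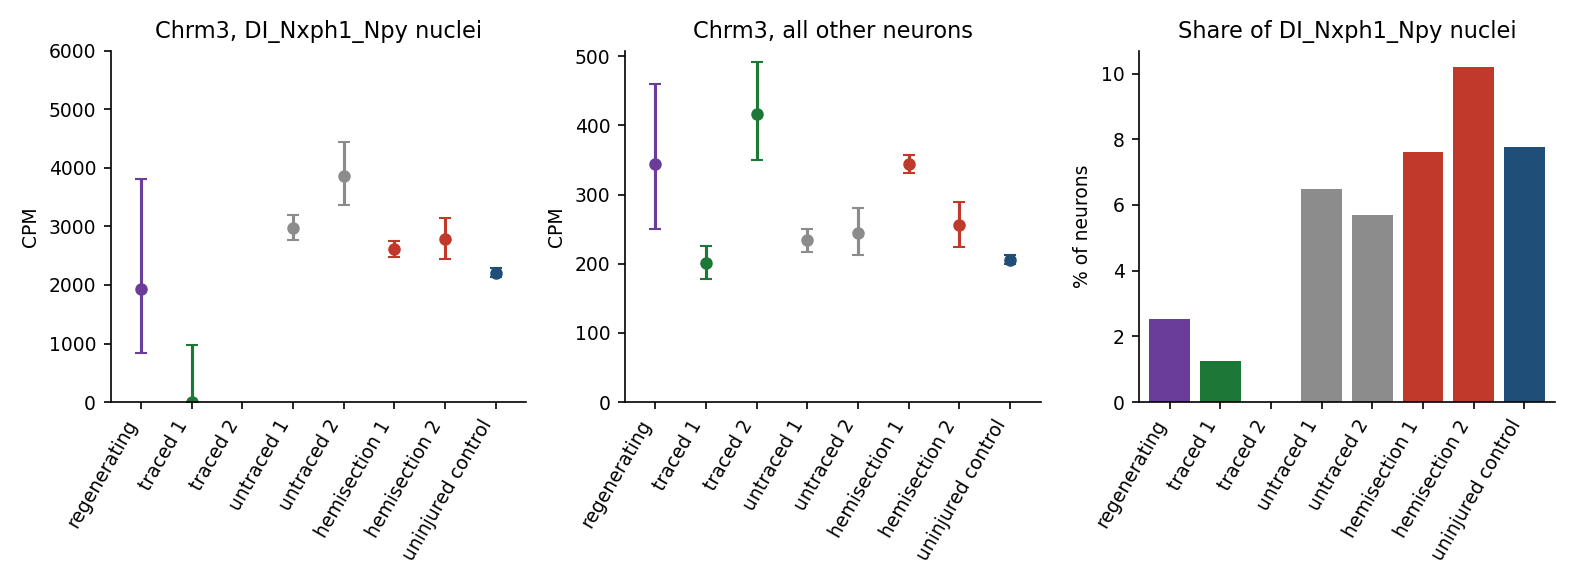
Chrm3 in DI_Nxph1_Npy nuclei (left) and in all other neurons (middle), in CPM with exact 95% counting intervals, and the share of neurons in that subtype, in percent (right), for each library; traced replicate 2 held no such nucleus. The subtype stands near 2000 CPM or higher where it was sampled by more than 1 nucleus, and traced libraries held 1.25% and 0 of it.

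The comparison of regenerating with traced neurons asked how projecting neurons that had regrown differed from uninjured ones, with 1 regenerating library assumed to vary like the replicated groups. These groups came from different experiments, so regeneration and experiment cannot be told apart here. None of the receptors passed the test here either. In the same edgeR test neither Chrm2 nor Chrm3 was called (0 of 2), where 0.276% of tested genes were called (0.215% higher, 0.0603% lower). Chrm2 stood at 267 [187 to 369] CPM in regenerating neurons and at 196 and 327 CPM in traced neurons, a log2 fold change of 0.07 (SE 0.34, edgeR adjusted p = 0.939). Chrm3 stood at 393 [294 to 513] CPM in regenerating neurons and at 200.4 and 417 CPM in traced neurons, a log2 fold change of 0.41 (SE 0.37, edgeR adjusted p = 0.585). For both genes the regenerating library lay between the traced libraries. Without traced replicate 1 the signs turned, to −0.24 for Chrm2 and −0.03 for Chrm3. The regenerating values rested on 36 and 53 counts, which limits their precision.

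The comparison of hemisected with uninjured cord addressed how spinal neurons respond to injury and its natural repair. Chrm4 averaged 93.2 ± 10.2 CPM after hemisection (SD, n = 2), against 0.145 CPM in the uninjured control and 0.143 ± 0.202 CPM in untraced neurons (SD, n = 2). Untraced neurons were a second uninjured group, from another experiment. In that contrast 5.56% of tested genes were called, but since the Chrm4 value led to the choice of the family nothing is read from its rank here. After hemisection 163 of 1000 neurons of replicate 1 and 22 of 108 of replicate 2 had a Chrm4 UMI (16.3% and 20.4%), against 3 of 2148 in the uninjured control (0.140%).

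Most Chrm4 UMIs after hemisection lay in nuclei that held several. In replicate 1, 59 nuclei had a single UMI and together held 8.43% of the total, while 20 nuclei with 10 or more held 44.7%. In replicate 2, 5 nuclei had a single UMI and 2 nuclei with 10 or more held 41.0%. In the uninjured control and in untraced replicate 1 no nucleus had more than 1. The largest number in a nucleus was 43 in replicate 1 and 26 in replicate 2, which is 6.14% and 24.8% of the library's Chrm4 UMIs.

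The share of neurons with Chrm4 grew with depth. In hemisection replicate 1 it was 8.38% of neurons below 5000 UMIs, 12.3% from 5000 to 10000, 24.0% from 10000 to 20000 and 52.8% from 20000 up. In replicate 2 these shares were 7.41%, 15% (6 of 40), 31.03% and 41.7%. In the uninjured control they were 0 of 120, 1 of 1208, 2 of 774 and 0 of 46 neurons. Thinned to 2000 UMIs, Chrm4 was found in 8.06% and 9.35% of hemisection neurons, against 0.0468% of uninjured control neurons, with 181, 1 and 12 shallower neurons left out. Hemisection neurons were shallower than control neurons at the median, at 7149 and 7827.5 against 8907 UMIs.

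Chrm4 after hemisection lay almost only in neurons, as far as other classes were sampled. Outside neurons the hemisection libraries held 3 Chrm4 UMIs in 1 of 14 OPC of replicate 1 and 1 in 765 oligodendrocytes of replicate 2. Microglia of replicate 2 had 0 in 593 nuclei, which allows a share of up to 0.506% with a UMI. The nearest genes showed no such gap. Ambra1, an autophagy gene that ends 8399 bases upstream on the same strand, had 312 and 314 CPM in hemisection neurons, against 251 CPM in the uninjured control. Mdk, a growth factor gene on the opposite strand 1116 bases downstream, had 1.72 and 0.956 CPM in hemisection neurons, against 4.53 CPM in the uninjured control.

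Within neurons, Chrm4 was found across the families of subtypes but at unequal levels. Ventral and middle neurons, by the first letter of their names, had 187 [168 to 207] and 163 [135 to 194] CPM in hemisection replicate 1, and dorsal neurons had 40.2 [35.1 to 46.0] CPM. The ventral excitatory family VEL was highest at 600.2 [499 to 716] CPM with a UMI in 13 of its 18 nuclei, although 43 of its 124 UMIs lay in 1 nucleus. MEP followed at 264 CPM in 11 nuclei, MIP at 185 CPM in 46, VEP at 176 CPM in 81 and VIP at 125 CPM in 50. DE had 48.0 CPM in 533 nuclei and DI 19.3 CPM in 182, and CSF-N had 0 counts in 16. In replicate 2 only DE and DI had at least 20 nuclei, at 70.7 CPM in 63 nuclei and 81.5 CPM in 23, and 17 of the 21 DI counts lay in 1 nucleus.

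By subtype the Chrm4 order was a slope without steps. Among the 15 subtypes of hemisection replicate 1 with at least 20 nuclei, all 14 neighbouring pairs overlapped. MIP_Tfap2b stood at 185 CPM, VIP_V1_Foxp2 at 133 CPM, DE_Rreb1_Zim1 at 84.4 CPM and DE_Maf_Cpne4 at 69.8 CPM. DE_Reln_Nmur2 was lowest at 6.40 [1.32 to 18.7] CPM and DI_Nxph1_Npy, the subtype highest in Chrm3, had 16.5 [7.54 to 31.3] CPM. The ends of the order lay well apart. In these subtypes the uninjured control held 1 Chrm4 count in DE_Sox5_Qrfpr, 1 in DE_Reln_Nmur2 and 0 in each of the others.

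**Figure D5:**
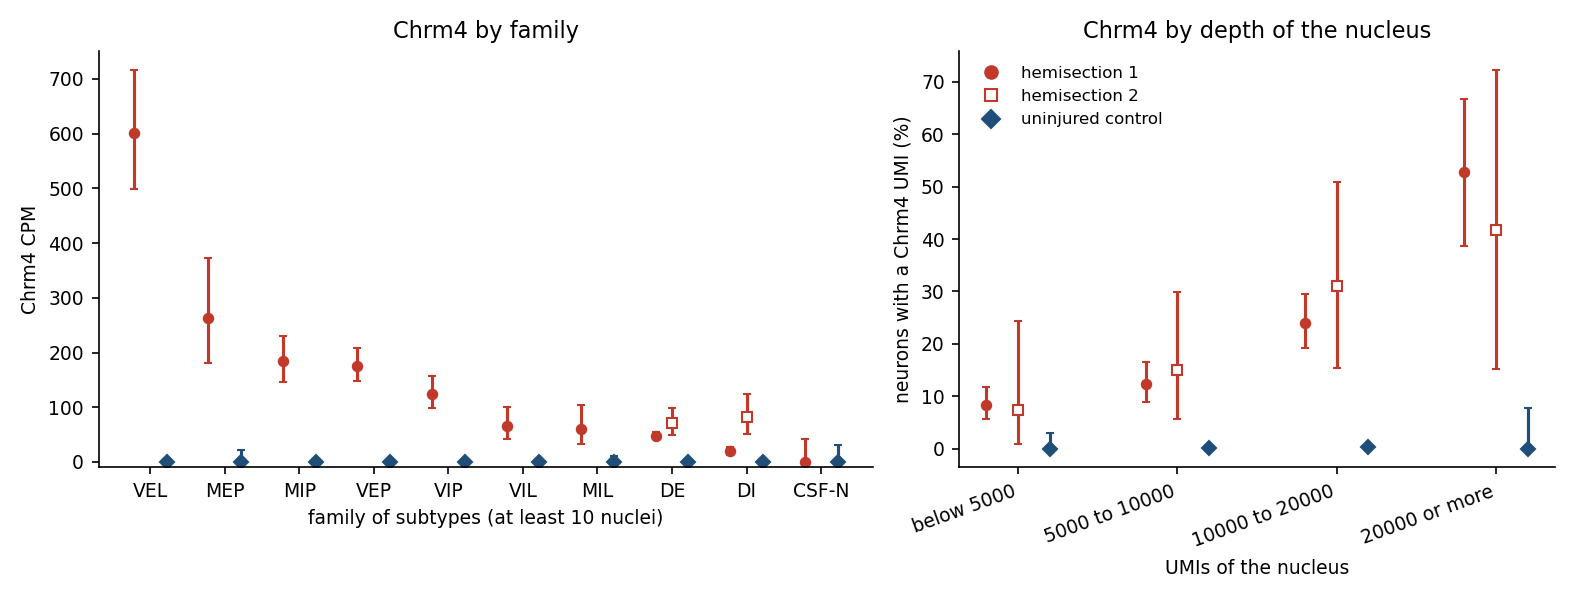
Left, Chrm4 level by family of neuron subtypes with at least 10 nuclei, in CPM with exact 95% counting intervals; right, share of neurons with a Chrm4 UMI by depth of the nucleus, in percent with exact 95% intervals. Red marks are hemisection replicates 1 (filled circles) and 2 (open squares) and blue diamonds the uninjured control, which stays at or near 0 in every family and depth range.

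Chrm3 and Chrm2 were set against the uninjured control by subtype as well, as a description. Chrm3 averaged 486 ± 14.0 CPM after hemisection (SD, n = 2), against 351 CPM in the uninjured control and 444 ± 23.4 CPM in untraced neurons (SD, n = 2). It was higher in hemisection replicate 1 than in the uninjured control in 13 of 15 subtypes, 10 of them with no overlap of intervals. VIP_V1_Foxp2 had 741 [669.9 to 817] CPM after hemisection, against 284 [263 to 307] CPM in the control, with 46 and 182 nuclei. MIP_Tfap2b had 606 CPM after hemisection, against 257 CPM in the control. DI_Nxph1_Npy differed less, at 2613 against 2209 CPM. The median difference over the 15 subtypes was 0.57 in log2(CPM + 10). These values rest on a single library on each side, which all subtypes share. The same count was not made for all genes, so it is not known whether Chrm3 differs from other genes in this.

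Hemisection replicate 2 had too few neurons per subtype for the same comparison. In its neurons outside DI_Nxph1_Npy, Chrm3 stood at 256 CPM, and at 344 CPM in replicate 1, against 206 CPM in the uninjured control and 234 and 245 CPM in the untraced libraries. Replicate 2 thus lay close to the untraced libraries. Chrm2 averaged 324 ± 20.1 CPM after hemisection (SD, n = 2) and 343 CPM in the uninjured control. By subtype it was higher in hemisection replicate 1 than in the control in 9 of 15, with 2 higher, 2 lower and 11 overlapping. DE_Nts had 177 [127 to 239] CPM after hemisection against 459 [408 to 516] CPM in the control, and DI_Nxph1_Npy had 835 [760 to 915] against 636 [596 to 678] CPM. DE_Nts had 133 CPM in 20 nuclei of untraced replicate 1 and 435 CPM in 7 of replicate 2.

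Oligodendrocyte marker levels in neurons were lower after hemisection, while microglial marker levels lay on both sides of the control. The 6 oligodendrocyte markers summed to 72.1 and 159 CPM in hemisection neurons, against 687 CPM in uninjured control neurons and 209 and 236 CPM in untraced neurons, with none at 0. The 7 microglial markers summed to 51.1 and 149 CPM in hemisection neurons, against 122 CPM in the control, also with none at 0. Their part in the Chrm2 and Chrm3 differences was not tested. For Chrm4 those classes held 1 UMI in the hemisection libraries, as given above.

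Other genes of cholinergic transmission were followed in the same edgeR fit. Of 8 genes of acetylcholine synthesis, transport and breakdown, 7 were measured and tested. After hemisection 2 of the 7 were called lower and 0 higher, where 4.61% of all tested genes were called lower and 0.948% higher. Slc5a7, the high-affinity choline transporter gene, had 2.09 and 2.87 CPM after hemisection, against 17.6 CPM in the uninjured control (log2 fold change −2.88, SE 0.67, edgeR adjusted p = 0.0186). Prima1, whose product anchors acetylcholinesterase in membranes, had 7.86 and 5.74 CPM, against 27.9 CPM (log2 fold change −1.83, SE 0.42, edgeR adjusted p = 0.0174). The median of the list was −0.68, against 0.03 over all tested genes.

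Untraced neurons, the uninjured group of another experiment, had 12.5 and 8.95 CPM of Slc5a7 and 15.4 and 31.3 CPM of Prima1. In DESeq2 neither gene was called, and without hemisection replicate 1 0 genes of the lists were called, while without replicate 2 Slc5a7 was. Cholinergic cells themselves were sampled unequally. The 4 measured motor neuron markers, among them Slc5a7, summed to 4.91 and 5.74 CPM in hemisection neurons, with Chat and Isl1 at 0 in replicate 2, against 40.8 CPM in the uninjured control and 22.2 and 19.0 CPM in untraced neurons. MN made up 0 of 1000 and 0 of 108 hemisection neurons, against 1.12% of uninjured control neurons. In such sums fewer cells of a type and less RNA per cell cannot be told apart.

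Nicotinic receptors, the ion channels gated by acetylcholine, were mostly below the filter, with 3 of 16 measured genes tested and 0 called after hemisection. Chrna4 had 7.00 and 3.82 CPM after hemisection, against 18.4 CPM in the uninjured control (log2 fold change −1.48, SE 0.42, edgeR adjusted p = 0.0543). Of the 21 genes on the Gi/o route of M2 and M4, all were tested and 0 were called (median 0.23). Kcnj3, a subunit gene of the potassium channels opened by Gi/o, had 512 and 530 CPM after hemisection, against 357 CPM in the control (log2 fold change 0.66, SE 0.22, edgeR adjusted p = 0.0969). Of 17 genes on the Gq route of M1, M3 and M5, 16 were tested and 0 called (median 0.19), with Gnaq, the Gq subunit gene itself, at 0.47 (SE 0.23, edgeR adjusted p = 0.273). Kcnj9 of the Gi/o route and Chrnb2 of the nicotinic receptors had edgeR adjusted p of 0.252 and 0.407. The nicotinic list and the G protein routes thus gave no call in the contrast that holds the Chrm4 values. In that contrast 5.56% of all tested genes were called, so 0 calls in lists this short tell little about them. Chrna4 was called with RLE size factors (edgeR adjusted p = 0.0412) and without the filter (edgeR adjusted p = 0.0312).

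In traced against untraced neurons 0 genes of these lists were called, where 0.362% of all tested genes were called. At that share, 0 calls in lists this short tell little about them. Gna14, a Gq-family subunit gene, had 17.2 and 14.99 CPM in traced neurons, against 39.9 and 44.8 CPM in untraced neurons (log2 fold change −1.37, SE 0.32, edgeR adjusted p = 0.0813). With the replicate number as a block it was called (−1.33, edgeR adjusted p = 0.0338). Plcb1, a phospholipase C gene of the same route, had 554 and 711 CPM in traced neurons, against 955 and 1025 CPM in untraced neurons (log2 fold change −0.73, SE 0.20, edgeR adjusted p = 0.157). Both were lower in both traced libraries than in either untraced library. Other genes named by the same rule, Colq and Prima1 of acetylcholine handling, Chrna7 and Chrnb2 of the nicotinic receptors and Gnai3 and Kcnj3 of the Gi/o route, had edgeR adjusted p between 0.372 and 0.954. The medians of the 4 lists were 0.27 for acetylcholine handling, −0.39 for nicotinic receptors, −0.14 for the Gi/o route and −0.26 for the Gq route, against −0.00444 over all tested genes.

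In regenerating against traced neurons 0 genes of the lists were called either, where 0.276% of all tested genes were called, so this tells as little. Gna14 had 74.1 CPM in regenerating neurons, from 10 counts, against 17.2 and 14.99 CPM in traced neurons (log2 fold change 2.11, SE 0.55, edgeR adjusted p = 0.150). Adcy5, an adenylyl cyclase gene, had 156 CPM in regenerating neurons, against 58.5 and 69.0 CPM in traced neurons (log2 fold change 1.296, SE 0.38, edgeR adjusted p = 0.176). Other genes named by the same rule, Rgs8, Slc44a1, Chrnb2 and Chrna7, had edgeR adjusted p between 0.195 and 0.824, and Bche was at 0 counts in the regenerating library. The lists' medians were −0.58, −0.10, 0.04 and 0.49 in the order above, against −0.28 over all tested genes. The comparisons of traced and of regenerating neurons share the traced libraries.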

How the data were processed

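The authors deposited 1 matrix of UMI counts per gene and nucleus, not normalized, with an annotation of each nucleus. The submitters' processing notes name Cell Ranger 4.0.0, Seurat 3 and the builds mm10 and GRCm38. Filters, doublet removal and the method of annotation were not given in the sources used here. Groups came from the sample titles. Classes and subtypes were used as annotated. The first letter of a name (D, M, V) was read as dorsal, middle or ventral and the second (E, I) as excitatory or inhibitory. The 1 remaining annotation column was not used, and no further filter or doublet caller was applied.

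Counts were summed per library over annotated neurons and scaled to CPM by all UMIs of those neurons, 135012 to 20739862 per library. The sums were tested with edgeR 4.0.16 in R 4.3.3 (TMM, filterByExpr by group with a minimum count of 10 and total of 15, glmQLFit, glmQLFTest) in 1 fit of all 8 libraries with a coefficient per group and 3 residual degrees of freedom. Genes were called at an adjusted p under 0.05 over 11601 genes. Alternatives were RLE size factors, no filter, DESeq2 1.42.0, the replicate block, leaving out a library, the nucleus with the most UMIs or a subtype, another reference, other thinning and other minimum numbers of nuclei.

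Intervals are exact Poisson for CPM and Clopper-Pearson for shares, and a count of 0 allows 3 counts. Identity was computed from aligned GENCODE coding sequences, and the printed stretches were read from the GRCm38 genome. The receptors were considered in every contrast, and of each list and contrast up to 4 called genes with the smallest p, or the 2 with the smallest p where none was called. Subtypes and families were named after their values were seen. The members and lists were chosen with earlier results of these data known. Some genes and subtypes are not reported here.

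The titles give traced and untraced libraries a shared replicate number and the deposited nucleus names share a prefix, so these numbers pair the samples. Over 7050 genes, the difference between replicates in traced libraries correlated with that in untraced libraries at r = 0.204.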

Additional observations from a re-analysis of the deposited data

How the results depend on the processing

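With low counts unfiltered, 1 receptor was called in traced against untraced neurons (Chrm3, −0.70, edgeR adjusted p = 0.0475), and leaving out a library gave 0 to 1. Without 1 library, the traced log2 fold change of Chrm2 ran between −0.61 (without traced replicate 2) and 0.035 (without replicate 1, a turned direction). The regenerating one of Chrm2 ran between −0.24 and 0.35 and that of Chrm3 between −0.032 and 0.88, both turned without traced replicate 1. Without DI_Nxph1_Npy nuclei, a setting chosen after seeing the data, Chrm3 turned to 0.21 in traced neurons. The main fit did not use the pairing of traced and untraced libraries. With the replicate block 0 receptors were called, but Chrm3 stood at −0.72 (edgeR adjusted p = 0.0966), against an edgeR adjusted p of 0.418 without it. With that block 1 list gene was called instead of 0. Unfiltered, the lists gave 2 calls in traced, 1 in regenerating and 4 in hemisection neurons. The 2 list calls after hemisection became 0 with DESeq2 and 0 to 1 when a library was left out. No paired analysis was possible for hemisection because the control has 1 library.

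The log2 ratios of hemisection over control were −0.08 for Chrm2, 0.47 for Chrm3 and 9.33 for Chrm4. Against untraced neurons Chrm2 and Chrm3 gave 0.15 and 0.13, with TMM scaling 0.034 and 0.58, and without DI_Nxph1_Npy nuclei −0.22 and 0.54. Without the nucleus with the most UMIs Chrm3 gave 0.40 and Chrm4 9.68. Dropping a nucleus can raise the Chrm4 ratio only through the control, whose 3 counts lay in 3 nuclei. The Chrm4 value of this setting is therefore no measure of how far the ratio rests on single hemisection nuclei. The range over left-out hemisection libraries was −0.15 to −0.02 for Chrm2, 0.44 to 0.50 for Chrm3 and 9.22 to 9.44 for Chrm4. Leaving out a hemisection library does not vary the control side of the Chrm4 ratio, 3 counts in 1 library. From summed counts the unlogged Chrm4 ratio was 606, with a counting interval of 207 to 2943. With at least 50 nuclei per subtype, Chrm3 was higher after hemisection in 100% of 7 subtypes and Chrm2 in 71.4%, again without a count over all genes. The causes were not tested. Traced replicate 2 (25 neurons) and the regenerating library (135012 UMIs) limit what could be resolved.

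Over all genes, 42 were called in traced neurons, 234 unfiltered, 141 with the block, 19 without traced replicate 1, 93 without untraced replicate 1, and 24 without DI_Nxph1_Npy nuclei. In regenerating neurons 32 were called, 185 unfiltered and 0 without traced replicate 1 (1548 at unadjusted p under 0.05). After hemisection 645 were called, 1101 unfiltered, 132 with DESeq2, and 171 and 327 without replicates 1 and 2.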
